A study of Mus musculus with 6 samples.

Results

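The genes described here are the 9 that encode the core of VEGF signalling as named by gene symbol: the receptors *Flt1*, *Kdr* and *Flt4*, the co-receptors *Nrp1*, *Nrp2* and *Plxnd1*, and the ligands *Vegfa*, *Vegfc* and *Pgf*. They were taken from the table by name, with no threshold on their values, and are 9 of the 56748 gene entries of the count table. RNA-Seq was performed on ECs sorted from the spinal cord of P16 mice, 3 control mice and 3 *TDP-43iΔEC* mice, with 1 library per mouse. Control mice carried *Tardbpflox*, the conditional allele of the gene that encodes the RNA-binding protein TDP-43, without Cre. *TDP-43iΔEC* mice had the genotype *Cdh5(PAC)-CreERT2;Tardbpflox*, in which Cre is expressed under the control of the *Cdh5* promoter of ECs and becomes active with tamoxifen. Both groups received tamoxifen (1 mg/mL) in 3 daily injections from P5 to P7, so that the drug itself was shared. The study's methods state that male and female mice were mixed, and the *Cdh5*-driven Cre is not restricted to the spinal cord. The cells had been gated with fluorescent antibodies and with DAPI to leave out dead cells.

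VEGF ligands are secreted dimers that bind receptor tyrosine kinases on ECs. VEGFR2, the product of *Kdr*, carries most of the mitogenic and permeability signal of VEGF-A, whereas VEGFR1, the product of *Flt1*, binds VEGF-A and PlGF tightly, has weak kinase activity and also exists as a soluble form, so that it limits the ligand available to VEGFR2. VEGFR3, the product of *Flt4*, is the receptor of VEGF-C and is known from lymphatic vessels and from sprouting tip cells, and neuropilins hold ligand and receptor together or, with D- and A-type plexins, receive semaphorins.

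The control libraries held 44041329, 45329494 and 47270654 counts, and the *TDP-43iΔEC* libraries 45010088, 28228980 and 25704871. A level of 3 counts, the least taken as detectable, corresponded to 0.0635 to 0.117 CPM (counts scaled to library size). It was highest in *TDP-43iΔEC* mice 2 and 3 (0.106 and 0.117 CPM). *Tardbp* had 1973, 2282 and 2069 normalized counts among controls, against 982, 599.9 and 433 among *TDP-43iΔEC* mice, without overlap (log2 fold change -1.62, SE 0.41, limma Benjamini-Hochberg adjusted p = 0.287). The summed level of 10 EC genes, led by *Cldn5*, was 11209 to 15991 CPM in control mice and 11706 to 15540 CPM in *TDP-43iΔEC* mice. Of 8 markers each, those of mural cells (led by *Rgs5*) summed to 495 to 900.0 and 431 to 1091 CPM, those of astrocytes (*Gja1*) to 218 to 263 and 151 to 200.0 CPM, those of neurons (*Stmn2*, with *Tubb3* at 0 in every library) to 16.7 to 35.0 and 13.8 to 31.2 CPM, and those of microglia (*P2ry12*, with *Adgre1* at 0) to 0 to 3.77 and 0.244 to 8.44 CPM. The 6 fibroblast markers (*Col3a1*) summed to 46.2 to 60.0 CPM in control mice and 62.7 to 109 CPM in *TDP-43iΔEC* mice, and the 5 erythroid markers (*Hba-a2*) to 6336 to 9759 and 2197 to 2909 CPM, with 4 of the 5 lower past the adjusted threshold. Of the oligodendrocyte lineage, 7 markers summed to 104, 243 and 168 CPM in control mice and to 261, 26.0 and 0.856 CPM in *TDP-43iΔEC* mice, with all 5 tested lower (median log2 fold change -6.37), 1 of them below an unadjusted limma p of 0.05 and 0 past the adjusted threshold. Lymphatic markers summed to at most 10.6 CPM, and *Lyve1* was at 0 in every library. The sums can follow single markers: *Gja1* held most of the astrocyte sum in every library. *Gja1* had 8633, 7690 and 8467 normalized counts among controls, against 3786, 6329 and 6244 among *TDP-43iΔEC* mice, without overlap. The lower astrocyte sum therefore cannot be read as a fall of astrocyte markers in general. Log2 fold changes were above 0 for 2 of 6 tested astrocyte markers and 2 of 5 tested fibroblast markers (medians -0.58 and -0.12). The part of the differences in the astrocyte, oligodendrocyte, fibroblast and erythroid sums in the results that follow was not tested. In sorted bulk RNA, fewer cells of a type and less RNA per cell cannot be told apart.

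To set the members in order, normalized counts were divided by the exonic length of each gene in kb. This length is that of the merged exons of all annotated transcripts, and the distances between genes depend on it. For *Nrp1* it was 15240 bp, against 5192 bp for its longest transcript, and for *Flt4* 8248 bp, against 6271 bp. *Flt1* stood first, at 4066 ± 1021 normalized counts per kb (SD, n = 6 mice), followed by *Kdr* at 3399.9 ± 416. *Nrp1* (939.7 ± 93.8), *Flt4* (703 ± 247) and *Plxnd1* (472 ± 110) formed the middle of the order. *Pgf* (226 ± 272), *Vegfc* (179 ± 94.2) and *Nrp2* (72.1 ± 36.6) came next, and *Vegfa* was last at 0.440. The place of *Pgf* holds for the mean of both groups only, since it was below *Nrp2* in control mice (39.8 against 64.2) and near *Plxnd1* in *TDP-43iΔEC* mice (413 against 430.2). The receptor genes *Flt1* and *Kdr* thus lay above 97.9% and 97.5% of all tested genes by this measure, and above *Nrp1* in every mouse, while *Nrp2* lay above 40.7%. From *Nrp1* to *Flt4*, *Plxnd1*, *Pgf*, *Vegfc* and *Nrp2*, the values of the 6 mice overlapped between each gene and the next. The overlap of *Nrp1* with *Flt4* rests on the use of merged exons as the length.

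**Figure D1:**
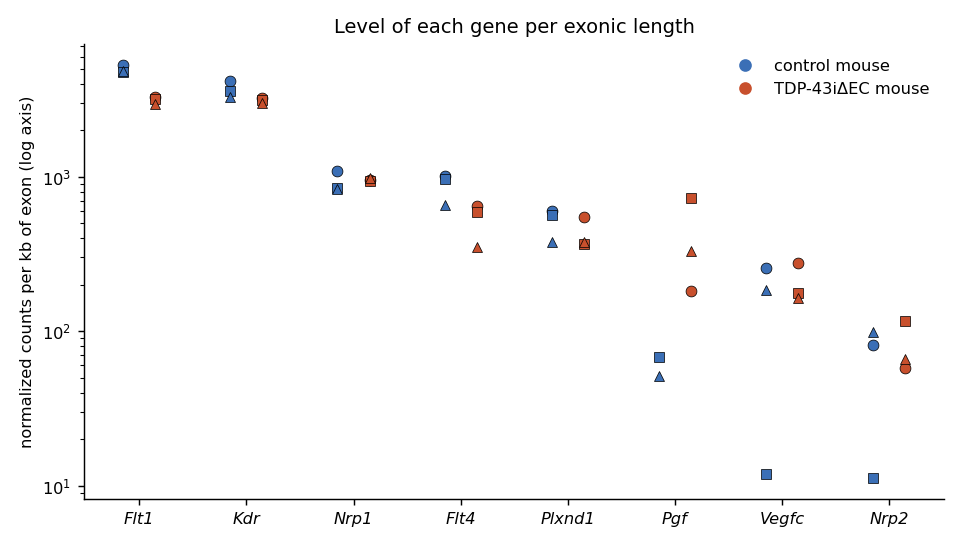
Normalized counts per kb of exon (log axis) of 8 members in each control and *TDP-43iΔEC* mouse, with 1 point per mouse. *Flt1* and *Kdr* lie above the others in all 6 mice, and *Vegfa* and the control mouse with 0 counts of *Pgf* cannot be drawn on a log axis.

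Over the members as a group, the comparison of *TDP-43iΔEC* with control mice gave 0 of 8 tested genes past an adjusted p of 0.05 in limma, against 0.137% of all 13107 tested genes (4 higher and 14 lower, or 4 and 6 when scaled to library size only). *Flt1* and *Flt4* were below an unadjusted p of 0.05, both with lower values in *TDP-43iΔEC* mice, against 9.27% of all tested genes. The groups did not overlap for 3 members that were lower in *TDP-43iΔEC* mice (*Flt1*, *Kdr* and *Flt4*, all 3 receptor tyrosine kinases), against 7.1% of all tested genes, and for 1 that was higher (*Pgf*), against 7.93%. The median log2 fold change of the 8 members was -0.11, and that of all tested genes -0.02.

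**Figure D2:**
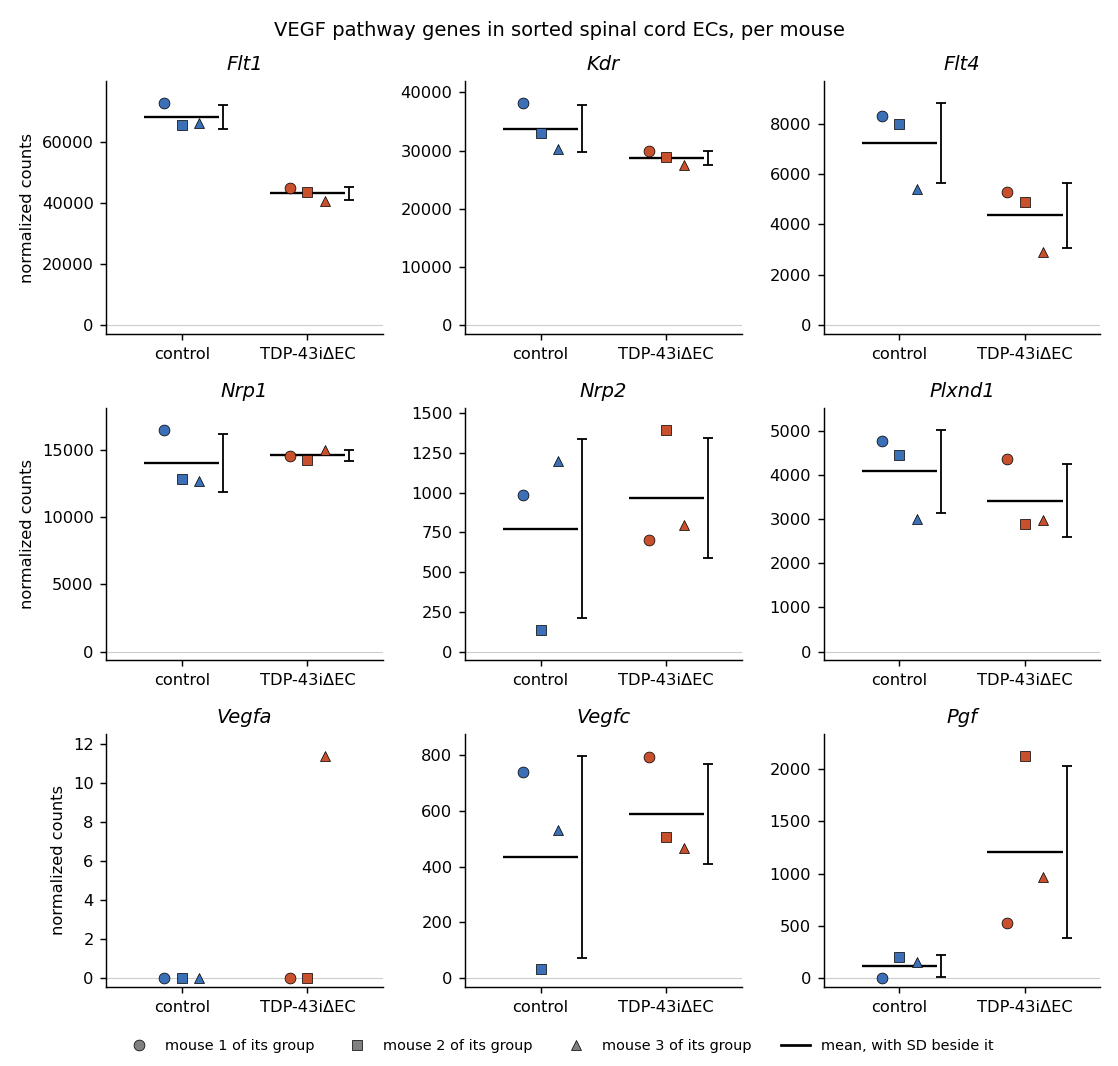
Normalized counts of the 9 members in each mouse, by group, with the mean and SD of 3 mice (not drawn for *Vegfa*) and symbols for the mouse number within its group. The 3 receptor genes of the top row are lower in every *TDP-43iΔEC* mouse than in every control mouse, and *Pgf* is higher.

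*Flt1* (ENSMUSG00000029648, GRCm39 chr5:147498414-147662826, minus strand, 12 annotated transcripts) had 72590 (control mouse 1), 65395 and 66007 normalized counts among controls, against 44973, 43635 and 40657 among *TDP-43iΔEC* mice. The lowest control mouse was above the highest *TDP-43iΔEC* mouse, and the same held when counts were scaled to library size or to the 10 EC genes. The means were 67997 ± 3989 and 43088 ± 2209 (SD, n = 3), a ratio of 0.634. In limma, the log2 fold change was -0.69 (SE 0.11, 95% interval -0.93 to -0.44), with an unadjusted p of 0.000136 (rank 28 of 13107 genes) and a Benjamini-Hochberg adjusted p of 0.0635, just outside the threshold of 0.05. Across 16 other settings the log2 fold change lay between -0.74 and -0.50 and the adjusted p between 7.90e-06 and 0.455, so that the sign was kept in all 16 and the call depended on the setting. DESeq2, which called 1.97% of 12661 genes, called 1 member, *Flt1* (log2 fold change -0.66, adjusted p = 7.90e-06), and edgeR did not (adjusted p = 0.353). In all 6 fits that left out 1 mouse, the adjusted p was between 0.116 and 0.429. The deposited value is the sum over the transcripts of the gene, so that the membrane-bound and soluble forms of VEGFR1 were not measured separately.

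*Kdr* (ENSMUSG00000062960, GRCm39 chr5:76093487-76139884, minus strand) had 38156, 32958 and 30289 normalized counts among controls, against 29890.0, 28856 and 27504 among *TDP-43iΔEC* mice. The lowest control mouse was only slightly above the highest *TDP-43iΔEC* mouse, and the groups overlapped after scaling to library size or to the 10 EC genes. The log2 fold change was -0.26 (SE 0.13, 95% interval -0.56 to 0.04, limma adjusted p = 0.575), and it lay between -0.33 and -0.07 in the other settings. *Flt4* (ENSMUSG00000020357, GRCm39 chr11:49500090-49543582, plus strand) had 8303, 7993 and 5422 normalized counts among controls, against 5308, 4881 and 2888 among *TDP-43iΔEC* mice. Control mouse 3 and *TDP-43iΔEC* mouse 3 were each the lowest of their group, and the gap between the groups was narrow. The means were 7239 ± 1582 and 4359 ± 1292 (SD, n = 3), a ratio of 0.602, and the log2 fold change was -0.73 (SE 0.28, 95% interval -1.37 to -0.10) with an unadjusted limma p of 0.0286 and an adjusted p of 0.488. The groups overlapped for *Flt4* after scaling to library size, and not after scaling to the 10 EC genes. These scalings moved the median log2 fold change of all genes to 0.18 and 0.16, and relative to that median *Flt1* was at -0.68 and -0.68, *Kdr* at -0.25 and -0.25 and *Flt4* at -0.73 and -0.74.

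A ratio of receptors within a library does not depend on how libraries are scaled to each other. The ratio of *Flt1* to *Kdr* was chosen with earlier results of these data known. *Flt1* had the larger fall of the pair (log2 fold change -0.69 against -0.26), so a lower ratio follows from those values and is not separate support. The ratio of *Flt1* to *Kdr* per kb of exon was 1.28, 1.34 and 1.47 in control mice and 1.01, 1.02 and 0.995 in *TDP-43iΔEC* mice. The ratio was lower in every *TDP-43iΔEC* mouse than in every control mouse, with means of 1.36 ± 0.0958 and 1.01 ± 0.0120 (SD, n = 3). The level of the ratio rests on the gene length used, and with the longest annotated transcript it was 1.67 to 1.91 in control mice and above 1 but at most 1.33 in *TDP-43iΔEC* mice. The difference of the mean log2 ratios was -0.43 (two-sided exact permutation test, p = 0.1, the smallest that 3 against 3 mice allow; 0.167 after Benjamini-Hochberg adjustment over the 5 ratios compared), and it lay between -0.47 and -0.37 when any 1 mouse was left out. The ratio of *Flt4* to *Kdr* was 0.243, 0.270 and 0.200 in control mice and 0.198, 0.189 and 0.117 in *TDP-43iΔEC* mice, and that of *Nrp1* to *Kdr* was 0.261, 0.236 and 0.253 and then 0.294, 0.298 and 0.330. Neither of these ratios overlapped between groups, the first being lower and the second higher in *TDP-43iΔEC* mice. Each had the same exact permutation p of 0.1 (0.167 adjusted), and the gap for *Flt4* was narrow (0.200 against 0.198). These ratios share *Kdr* as the denominator and are not independent, and *Nrp1* itself had a log2 fold change of 0.03. How often ratios of other genes separate the groups was not computed. The ratios of *Plxnd1* to *Kdr* and of *Nrp2* to *Nrp1* overlapped (exact permutation p = 1 and 0.8).

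**Figure D3:**
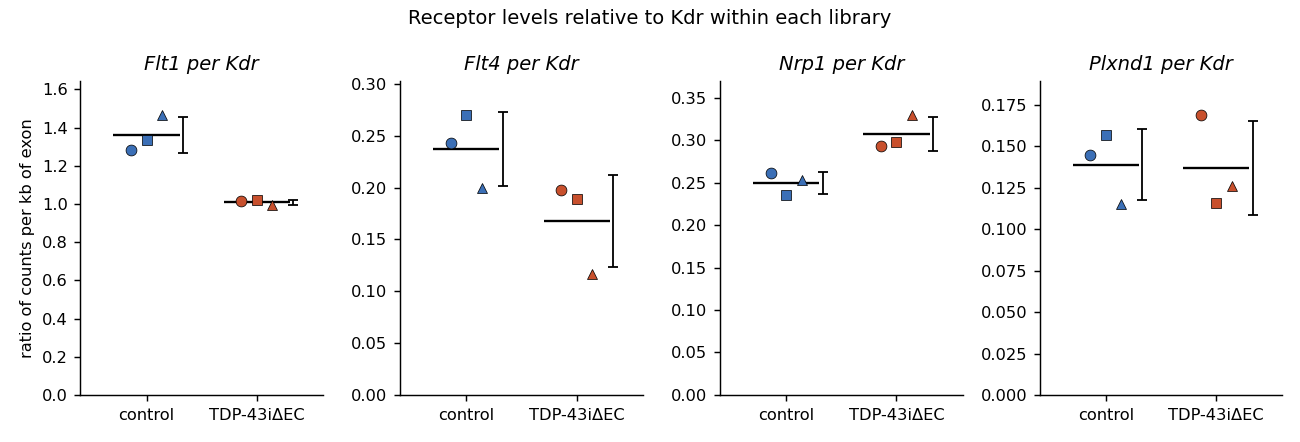
Ratios of counts per kb of exon to those of *Kdr* within each library, with the mean and SD of 3 mice per group. The *Flt1* ratio is 1.28 to 1.47 in control mice and 0.995 to 1.02 in *TDP-43iΔEC* mice, and the *Plxnd1* ratio overlaps.

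TDP-43 is known to bind runs of UG in RNA, most often in introns, and the transcribed strand of each member was therefore searched for runs of at least 6 TG repeats (12 bp). *Flt1* held 27 runs, *Nrp1* 25, *Nrp2* 13, *Vegfc* 12, *Flt4* and *Kdr* 6 each, *Plxnd1* 2, *Vegfa* 1 and *Pgf* 0. The share of members with a run was 8 of 9, against 66.1% of the 13060 tested genes with an annotation. Runs follow gene length: 711 of the 712 tested genes at least as long as *Flt1* held one, and 468 tested genes held as many as *Flt1* or more. Binding was not measured in this experiment. The longest intronic runs of both main receptor genes are printed to show what such a run looks like in the primary transcript (GRCm39, minus strand, 5′ to 3′, the run in capitals with 20 bp on either side). That of *Flt1* spans chr5:147652720-147652765 (46 bp) and that of *Kdr* chr5:76126310-76126357 (48 bp).
Flt1 intronic run: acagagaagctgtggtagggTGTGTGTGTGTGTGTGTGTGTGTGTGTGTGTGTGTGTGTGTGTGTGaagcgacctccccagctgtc
Kdr intronic run: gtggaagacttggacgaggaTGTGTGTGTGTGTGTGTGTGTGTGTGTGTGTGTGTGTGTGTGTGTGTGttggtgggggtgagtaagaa

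*Nrp1* (ENSMUSG00000025810, GRCm39 chr8:129085085-129231082, plus strand), the neuropilin that binds VEGF-A and semaphorin 3A, had 16526, 12871 and 12689 normalized counts among controls, against 14549, 14244 and 15047 among *TDP-43iΔEC* mice. The *TDP-43iΔEC* values lay inside the range of the control mice, and the log2 fold change was 0.03 (SE 0.16, 95% interval -0.34 to 0.40, limma adjusted p = 0.971). *Plxnd1* (ENSMUSG00000030123, GRCm39 chr6:115931772-115972286, minus strand), the plexin that receives semaphorin 3E in ECs, had 4778, 4458 and 3007 normalized counts among controls, against 4364, 2891 and 2989 among *TDP-43iΔEC* mice, and its log2 fold change was -0.24 (SE 0.28, 95% interval -0.88 to 0.40, limma adjusted p = 0.803). The groups overlapped for both genes. *Nrp2* (ENSMUSG00000025969, GRCm39 chr1:62742444-62857854, plus strand), which pairs with VEGFR3, had 986, 134 and 1195 normalized counts among controls, against 699.8, 1395 and 793 among *TDP-43iΔEC* mice. Control mouse 2 was far below the other 5 mice, and its difference of 0.64 on the log2 scale (SE 0.79, 95% interval -1.14 to 2.42, limma adjusted p = 0.812) turned to -0.35 without that mouse.

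Among the ligands, *Vegfa* (ENSMUSG00000023951, GRCm39 chr17:46327919-46343309, minus strand) had 0 counts in 5 libraries and 8 counts in *TDP-43iΔEC* mouse 3 (0.311 CPM), and it did not enter the test because of these low counts. *Vegfa* was thus at or near the limit of 3 counts in the sorted ECs of both groups, and no fold change is given. *Vegfc* (ENSMUSG00000031520, GRCm39 chr8:54530257-54640131, plus strand) had 739, 33.8 and 531 normalized counts among controls, against 795, 507 and 467 among *TDP-43iΔEC* mice. Control mouse 2 was again the low one, and the log2 fold change of 1.28 (SE 1.03, 95% interval -1.06 to 3.62, limma adjusted p = 0.693) became -0.11 without it. The library of control mouse 2 also held the fewest genes with a count (12972, against 14103 to 16557 in the others). Leaving that mouse out moved the median log2 fold change of all tested genes to -0.17. Of the exonic bases of *Vegfc*, 10.5% overlap a gene on the other strand, whose reads RSEM run with default options does not separate. That share was at most 3.18% for the other members.

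*Pgf* (ENSMUSG00000004791, GRCm39 chr12:85213409-85224564, minus strand), which encodes placental growth factor, a ligand of VEGFR1 and not of VEGFR2, had 0, 199 and 151 normalized counts among controls, against 531, 2123 and 969 among *TDP-43iΔEC* mice. The lowest *TDP-43iΔEC* mouse was above the highest control mouse under all 3 scalings tried, while the *TDP-43iΔEC* mice also differed widely among themselves. The means were 116 ± 104 and 1208 ± 822 (SD, n = 3), a ratio of 10.4. The log2 fold change was 5.30 (SE 2.39, 95% interval -0.11 to 10.72, limma Benjamini-Hochberg adjusted p = 0.544) and rested in large part on the 0 counts of control mouse 1, since it was 2.40 without that mouse (limma adjusted p = 0.601). Per kb of exon, *Pgf* was at 39.8 ± 35.4 in control mice and 413 ± 281 in *TDP-43iΔEC* mice, still below *Nrp1*, at 920.5 ± 142 and 959 ± 26.6.

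**Figure D4:**
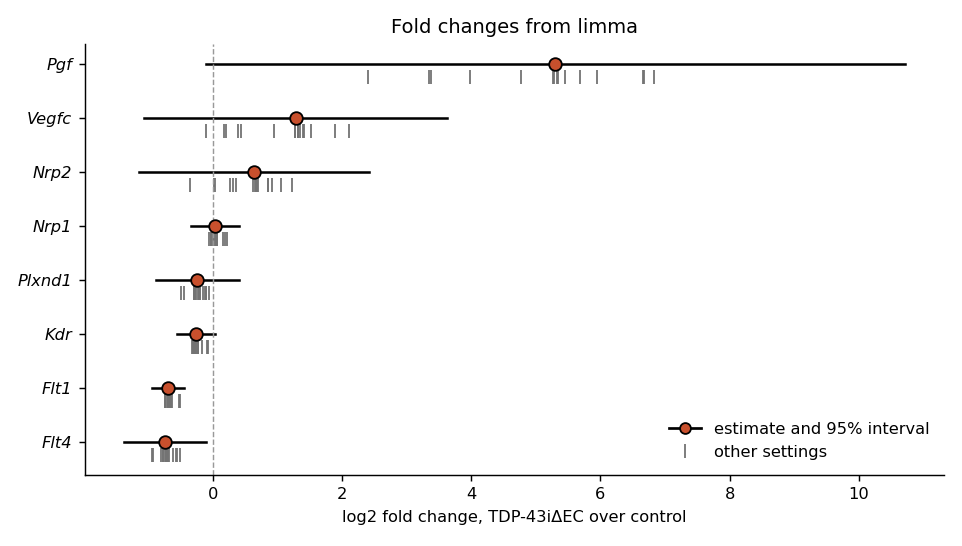
Log2 fold change of *TDP-43iΔEC* over control mice for the 8 tested members from limma, with the 95% interval and, as grey ticks, the estimates under the other settings. The interval lies below 0 for *Flt1* and *Flt4* and includes 0 for the other 6 members.

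The upstream windows of all 9 members were searched for 2 motifs. These were GGAA, the core that ETS factors of ECs such as ERG recognise, and ACGTG, a form of the core of hypoxia-inducible factor sites. The other form, GCGTG, was not searched, so a window without ACGTG can still hold such a core. Both strands were searched in the 250 bases before each RefSeq start (GRCm38.p6), and the motifs can share at most 1 base. GGAA was found in 93.4% of all 32851 windows, with a median of 3 matches per window, and ACGTG in 16.6%. Of the 11 windows of the 9 members, 9 held GGAA and 1, of *Vegfa*, held ACGTG. *Flt1* and *Kdr* held GGAA 4 times each and *Pgf* held neither motif in either of its windows. Windows of the 2 abundant receptors and of *Pgf* are printed 5′ to 3′ on the strand of the gene, with GGAA or its reverse complement TTCC in capitals. They are those of *Flt1* (chr5:147726012-147726261, minus strand), *Kdr* (chr5:75978456-75978705, minus strand) and the upstream window of *Pgf* (chr12:85177314-85177563, minus strand). A match of this kind is common and describes the letters of the window only.
Flt1 window: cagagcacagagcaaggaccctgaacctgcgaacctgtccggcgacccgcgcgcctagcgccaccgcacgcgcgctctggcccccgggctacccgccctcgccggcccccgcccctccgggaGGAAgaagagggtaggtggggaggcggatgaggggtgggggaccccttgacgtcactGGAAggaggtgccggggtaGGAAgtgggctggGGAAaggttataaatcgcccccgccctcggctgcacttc
Kdr window: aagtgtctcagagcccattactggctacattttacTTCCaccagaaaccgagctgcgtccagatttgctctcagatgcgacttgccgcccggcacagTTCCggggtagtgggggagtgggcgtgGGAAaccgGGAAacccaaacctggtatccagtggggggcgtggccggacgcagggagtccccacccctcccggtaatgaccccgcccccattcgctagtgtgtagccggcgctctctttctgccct
Pgf window: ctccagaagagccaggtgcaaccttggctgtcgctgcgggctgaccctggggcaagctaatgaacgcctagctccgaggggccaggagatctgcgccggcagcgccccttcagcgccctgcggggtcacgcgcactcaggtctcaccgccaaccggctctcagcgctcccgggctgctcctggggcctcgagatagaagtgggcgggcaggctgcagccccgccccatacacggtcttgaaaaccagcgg

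To place the members among other genes of the pathway, 101 genes in 6 lists were examined, of which 88 were tested. Of these, 1 was past the adjusted threshold in limma, *Angpt2*, with higher values in *TDP-43iΔEC* mice, and 14 were below an unadjusted p of 0.05 (6 higher and 8 lower), against 0.137% and 9.27% of all tested genes. The median log2 fold change of the 88 genes was -0.03. *Angpt2*, which encodes the TIE2 ligand angiopoietin-2 and is induced by VEGF in ECs, rose from 7823, 7415 and 4749.8 normalized counts among controls to 18671, 26391 and 23769.8 among *TDP-43iΔEC* mice. Every *TDP-43iΔEC* mouse was above every control mouse (log2 fold change 1.74, SE 0.23, limma Benjamini-Hochberg adjusted p = 0.0318). The call was lost when any 1 mouse was left out of the limma fit (adjusted p = 0.0673 to 0.164). With every mouse kept, it was also lost in edgeR (adjusted p = 0.112) and in limma when scaled to the 10 EC genes (adjusted p = 0.0599). The log2 fold change of *Angpt2* lay between 1.52 and 1.91 with 1 mouse left out. The genes listed as targets of VEGF signalling had a median log2 fold change of 0.63 over 16 tested genes, 12 of them above 0. Of the 16, 4 were below an unadjusted limma p of 0.05 (25%), all higher in *TDP-43iΔEC* mice. VEGF signalling itself was not measured.

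**Figure D5:**
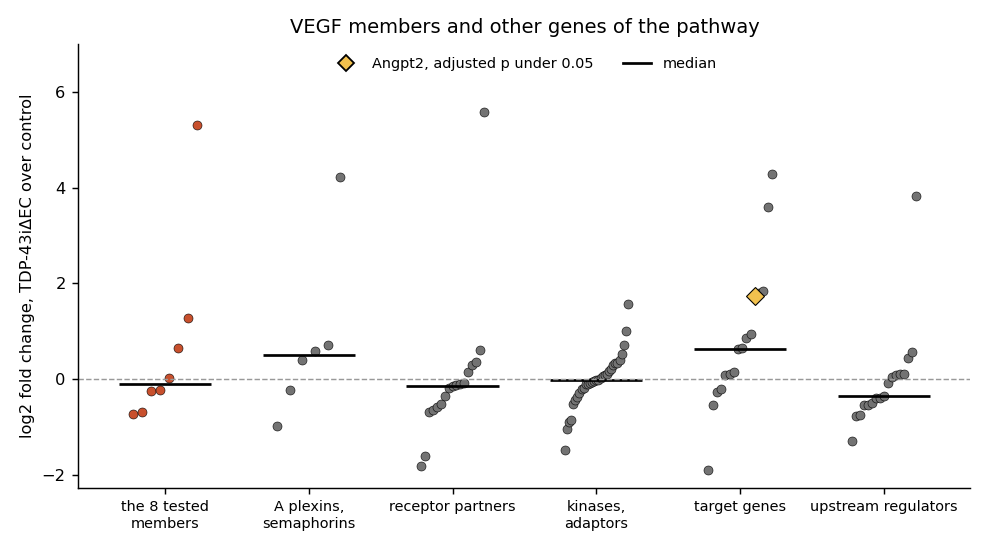
Log2 fold change from limma of each tested gene, for the 8 tested members and 5 lists of other pathway genes, with a bar at each median. *Angpt2* (diamond) is the one gene past the adjusted threshold, and the list of other ligands, with only *Vegfb* tested, is not drawn.

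Among 17 tested genes listed as receptor partners, 3 were below an unadjusted limma p of 0.05 (17.6%, against 9.27% of all tested genes), all lower in *TDP-43iΔEC* mice. Their median log2 fold change over the 17 genes was -0.15. This list is wider than the proteins that act directly on VEGF receptors at the membrane. *Synj2bp*, which encodes a mitochondrial outer membrane and synaptic scaffold protein known to modulate DLL signalling in ECs, had 2205 ± 1057 normalized counts among controls, against 573 ± 159 among *TDP-43iΔEC* mice (log2 fold change -1.82, SE 0.55, limma adjusted p = 0.370), and DESeq2 called it (log2 fold change -1.94, adjusted p = 0.0125). *Ptprb*, which encodes the phosphatase VE-PTP that acts on TIE2 and VEGFR2, had 32604 ± 6142 and 22749.6 ± 2937 (log2 fold change -0.53, SE 0.17, limma adjusted p = 0.395). Both genes were lower in every *TDP-43iΔEC* mouse than in every control mouse, and neither passed the adjusted threshold in limma. Of 17 upstream regulators, 4 were below an unadjusted p of 0.05 (23.5%), all lower, with a median of -0.36. Each of these lists is small, and no test compared them with other genes. *Epas1*, which encodes the hypoxia-inducible factor HIF-2α, had 43435 ± 4447 and 33757 ± 1584 normalized counts (log2 fold change -0.39, limma adjusted p = 0.391), and *Lmo2*, which encodes a transcriptional cofactor of ECs and blood cells, had 8038 ± 1852 and 4783 ± 828 (log2 fold change -0.76, limma adjusted p = 0.395).

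Among 31 kinases and adaptors, 2 were below an unadjusted p of 0.05 (6.45%), both higher in *TDP-43iΔEC* mice, and the median log2 fold change was -0.03. These were *Map2k1*, which encodes the kinase MEK1 (1132 ± 759 and 2990.6 ± 323 normalized counts, log2 fold change 1.57, limma adjusted p = 0.360), and *Ptk2*, which encodes focal adhesion kinase (2686 ± 702 and 4374 ± 796, log2 fold change 0.71, limma adjusted p = 0.489). Of 6 A-type plexin and semaphorin genes tested, 1 was below an unadjusted p of 0.05 (16.7%), namely *Sema3c*, a secreted semaphorin that binds neuropilins (9081 ± 3377 and 4572 ± 1897 normalized counts, log2 fold change -0.99, SE 0.36, limma adjusted p = 0.471). *Plxna2*, which encodes a plexin that pairs with neuropilins, had 3043 ± 377 and 4679 ± 1244 (log2 fold change 0.59, limma adjusted p = 0.545) with overlapping groups. *Vegfb*, which encodes a ligand of VEGFR1, was detected unevenly, with 236, 2 and 2 counts among controls, against 0, 51 and 7 among *TDP-43iΔEC* mice.

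The genes whose pattern over the 6 libraries was nearest to that of *Flt1*, by the root mean square difference of mean-centred log2 CPM, were *Agrn* (0.0848), *Bsg* (0.0855), *Gm10175* (0.101), *Ppdpf* (0.104) and *Slc7a5* (0.110). *Bsg*, which encodes basigin, an abundant membrane glycoprotein of CNS ECs, fell from a mean of 390877 to 233721 normalized counts (log2 fold change -0.78, limma adjusted p = 0.0119), and *Slc7a5*, which encodes the large neutral amino acid transporter LAT1, was at -0.52 (limma adjusted p = 0.353). The nearest genes to *Kdr* were *Sparcl1* (0.0520), *Smarcb1* (0.0538) and *Podxl* (0.0565), with log2 fold changes between -0.24 and -0.20. The distance was taken over both groups and so includes the difference between them. Genes near *Flt1* or *Kdr* therefore have fold changes near those of the receptor by selection.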

How the data were processed

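ECs sorted from the spinal cord were profiled in 6 libraries made with SMARTseq2, which copies polyadenylated RNA and amplifies the cDNA by PCR. The authors mapped reads to GRCm39 with STAR 2.7.8a, quantified GENCODE genes with RSEM 1.3.0 at default options, and deposited unscaled and unfiltered estimated counts of 56748 genes, all of them integers. Molecular identifiers are not described, so PCR copies count as reads, and the limit of 3 counts covers counting error only. Groups and mouse numbers were taken from the sample labels.

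The whole table was fitted with limma 3.58.1 in R 4.3.3 (voom, TMM scaling, filterByExpr of edgeR 4.0.16, no covariate), as the study's methods name limma and voom. P values were adjusted over the 13107 tested genes (Benjamini-Hochberg), with a threshold of 0.05. For normalized counts, each library was divided by its DESeq2 1.42.0 size factor, and levels per kb use merged exons of GENCODE M39, which held 98.7% of the gene identifiers. Within-library ratios were compared with exact permutation tests. The limma, edgeR and DESeq2 fits at their main settings were run on simulated counts with known changes. The other procedures were not tested in that way.

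The genes named are the 9 members, *Tardbp*, per pathway list every gene past the threshold or otherwise the 2 with the smallest unadjusted p, the highest marker of each cell type (1 marker is not reported here), and the 5 and 3 genes nearest to *Flt1* and *Kdr*. The members, the lists and the *Flt1* to *Kdr* ratio were chosen with earlier results of these data known. Alternatives comprised the quasi-likelihood test of edgeR, the Wald test of DESeq2, other scalings (DESeq2 size factors, library size, 10 EC genes, and without ribosomal RNA, hemoglobin and mitochondrial genes), other filters on low counts, sample quality weights, an adjusted p threshold of 0.1, the replicate number as a block, and leaving out each mouse. Promoter windows are those of RefSeq (GRCm38.p6), in which all 9 members were matched. Reads and protein sequences were not analysed here.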

Additional observations from a re-analysis of the deposited data

How the results depend on the processing

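The number of members past the adjusted threshold, 0 in the reported test, was 1 with DESeq2, 1 without a filter on low counts and 1 at an adjusted p of 0.1, and *Flt1* was that gene in each case. The number of other pathway genes past it, 1 in the reported test, was 0 with edgeR, 4 with DESeq2, 0 when scaled to the 10 EC genes, and 0 to 0 when each mouse was left out. Of all tested genes, 18 were past it in the reported test, 0 with edgeR (848 below an unadjusted p of 0.05), 250 with DESeq2, 10 when scaled to library size, 0 when scaled to the 10 EC genes (1094 below an unadjusted p of 0.05), 76 without a filter, 39 with at least 10 counts in every library, and 0 to 13 when each mouse was left out (0 without *TDP-43iΔEC* mouse 1). *Tardbp* passed the threshold with DESeq2 (log2 fold change -1.65, adjusted p = 0.0216). *Nrp1* turned from 0.029 to -0.027 with sample quality weights and ranged from -0.051 to 0.16 when each mouse was left out, *Nrp2* ranged from -0.35 to 1.23 and *Vegfc* from -0.11 to 2.11, with the lowest value of all 3 genes without control mouse 2. The log2 fold changes of *Flt1*, *Kdr*, *Flt4* and *Plxnd1* kept their sign in all 16 alternatives, and that of *Pgf* in the 15 that gave one. The difference of the *Flt1* to *Kdr* log2 ratio was -0.47 to -0.37 with each mouse left out, and a change of gene length or pairing cannot alter it. The causes were not tested.

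Same-numbered mice of the groups did not deviate together (correlations over genes of -0.07, -0.13 and -0.02). Mice of unlike number had correlations of -0.04 to 0.12. The labels give no litter or batch, so whether same-numbered mice shared either is not known. With the replicate block, 22 tested genes and 0 members were past the threshold, and *Flt1* was at -0.70 on the log2 scale (limma adjusted p = 0.0645). Paired, the *Flt1* to *Kdr* difference was -0.43 (exact permutation p = 0.25, the smallest that 3 pairs allow). With 3 mice per group and low counts of *Nrp2*, *Vegfc* and *Pgf* in single mice, intervals for these genes span more than the changes seen in the receptors.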

Other observations

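Besides *Angpt2* and *Synj2bp*, the latter lower in *TDP-43iΔEC* mice, DESeq2 called 2 other pathway genes, both VEGF targets that limma did not call, and they are named here after their values were seen. *Apln*, which encodes the tip cell peptide apelin, had 10200, 6653 and 8244 normalized counts among controls, against 13129, 19196 and 18505 in *TDP-43iΔEC* mice (log2 fold change 0.95, SE 0.23, limma Benjamini-Hochberg adjusted p = 0.271). *Plaur*, which encodes the urokinase receptor, had 2145, 543 and 1830 normalized counts among controls, against 4791, 3718 and 6389 in *TDP-43iΔEC* mice (log2 fold change 1.84, SE 0.48, limma adjusted p = 0.296). Both were higher in every *TDP-43iΔEC* mouse than in every control mouse. The background of DESeq2 was 1.97% of 12661 genes called.

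The 9 members together took 0.388%, 0.307% and 0.311% of all counts among controls, against 0.296%, 0.293% and 0.250% in *TDP-43iΔEC* mice, without overlap between the groups. *Flt1* alone made up 44.3% to 55.3% of that sum, and the other 8 members took 0.190%, 0.145% and 0.139% among controls, against 0.164%, 0.163% and 0.139%, which overlap.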
